A study of Mus musculus with 14 samples.

Results

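The expression of 7 genes of epidermal growth factor (EGF) receptor signalling was followed in mouse embryonic fibroblasts, which are cultured cells of embryonic connective tissue. They were the ligand genes Areg, Ereg, Hbegf, Tgfa and Nrg1, the receptor gene Egfr, and Errfi1, which encodes an inhibitor of the receptor. All 7 of 7 named genes were found among the 40800 genes of the deposited table by their symbol, and each was represented by its transcript row with the most reads. The 14 libraries of total RNA formed 7 groups of 2. They were cells after 3, 6 and 12 h without amino acids, cells after 3, 6 and 12 h without glucose, and control cells at 0 h that had not been starved. No genotype, embryo age or strain was given in the sources used here. Before sequencing, all cells were detached with trypsin and frozen. Starved cells had been washed, given medium with dialyzed serum and frozen in dialyzed serum, whereas no medium change is described for control cells and they were frozen in ordinary serum. These differences in handling are part of every contrast of starved with control cells. No unstarved cells were sequenced at 3, 6 or 12 h, so in these contrasts starvation and time in culture cannot be told apart. Whether the 2 libraries of each group stem from different cultures is not stated, and p-values therefore measure only the spread between these libraries, which may be technical.

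Amphiregulin (Areg), epiregulin (Ereg), heparin-binding EGF-like growth factor (Hbegf) and transforming growth factor alpha (Tgfa) are made as membrane-anchored precursors. Metalloproteases, above all ADAM17, release them so that they can bind the EGF receptor on the same or a neighbouring cell. Neuregulin 1 (Nrg1) is built in a like way but binds the related receptors ErbB3 and ErbB4. The activated EGF receptor signals through RAS, RAF, MEK and ERK kinases, and ERK in turn raises the transcription of several of its ligands and of Errfi1. The Errfi1 protein (also called MIG6) binds the kinase domain of the receptor and closes a feedback loop.

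The 250 bases before the annotated transcription start were read from RefSeq (GRCm38.p6) for Areg, Errfi1, Tgfa and Egfr, 4 of the 7 genes. Of these 4 genes, Areg and Errfi1 had the largest increases, Egfr had a smaller one, and Tgfa was never called higher than the control. Both strands were searched for the cAMP response element TGACGTCA, its core TGACG (which it contains), the AP-1 site TGACTCA, the ATF4 composite site TGATGNAA, the TATA box TATAAA and the CArG box. Capitals mark matches of these motifs, the core left out. All 4 windows lie on the plus strand, Areg at chr5:91139349-91139598, Errfi1 at chr4:150854820-150855069, Tgfa at chr6:86194972-86195221 and Egfr at chr11:16751953-16752202.
Areg: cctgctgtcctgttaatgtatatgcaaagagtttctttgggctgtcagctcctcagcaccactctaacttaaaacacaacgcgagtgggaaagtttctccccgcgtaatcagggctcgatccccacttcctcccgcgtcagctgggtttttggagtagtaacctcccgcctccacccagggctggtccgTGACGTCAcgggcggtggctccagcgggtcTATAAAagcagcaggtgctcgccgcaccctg
Errfi1: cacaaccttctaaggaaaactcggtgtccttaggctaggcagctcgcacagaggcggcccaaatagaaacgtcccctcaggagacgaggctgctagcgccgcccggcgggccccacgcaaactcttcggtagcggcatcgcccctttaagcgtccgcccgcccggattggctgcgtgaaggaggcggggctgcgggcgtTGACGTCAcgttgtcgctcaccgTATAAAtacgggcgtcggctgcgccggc
Tgfa: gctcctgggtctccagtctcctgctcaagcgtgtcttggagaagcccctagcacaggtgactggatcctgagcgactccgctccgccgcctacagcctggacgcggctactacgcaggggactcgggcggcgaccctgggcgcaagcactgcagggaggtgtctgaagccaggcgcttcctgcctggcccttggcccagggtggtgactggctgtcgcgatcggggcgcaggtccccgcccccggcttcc
Egfr: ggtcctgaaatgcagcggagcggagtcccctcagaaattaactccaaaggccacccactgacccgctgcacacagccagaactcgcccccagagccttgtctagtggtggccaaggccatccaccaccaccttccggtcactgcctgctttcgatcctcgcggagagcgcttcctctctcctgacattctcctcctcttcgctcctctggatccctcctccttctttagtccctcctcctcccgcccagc
The cAMP response element stood at positions -61 to -54 from the start in Areg and at -51 to -44 in Errfi1. A TATA box followed it at -31 to -26 in Areg and at -28 to -23 in Errfi1. Of all 32851 promoter windows of this length, 1.55% held the cAMP response element and 12.4% the TATA box. The windows of Tgfa and Egfr held no match of any of the 6 motifs, and neither did a window at a second annotated start of Errfi1 (chr4:150853546-150853795, plus strand). AP-1 sites occurred in 4.46% of all windows, ATF4 composite sites in 3.45%, CArG boxes in 1.47% and the core in 17.8%. Ereg, Hbegf and Nrg1 are named only, and no window of them is shown. Hbegf rose about as much as Errfi1 at 3 h without amino acids (log2 fold changes of 3.10 and 3.14). The windows shown therefore leave out a gene with one of the large increases. Whether any motif had a part in the changes of these genes was not tested.

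Libraries held 35270751 to 55349673 reads with 1 row per gene. Levels are given in CPM, reads relative to the scaled library total, and among the 7 genes the lowest of them, that of Areg in control cells, rested on 61 and 75 reads. A change or difference is called where the quasi-likelihood test of edgeR gave an adjusted p under 0.05 over 17696 genes, and all 7 genes passed the filter on low counts. Of the fibroblast markers, Col1a1, Col1a2, Col3a1, Pdgfra, Pdgfrb and Vim were detected in every group, whereas Thy1 was at 0 reads in all libraries but 1 after 3 h of glucose starvation, which had 2. The summed level of the 7 markers ranged from 487 to 512 CPM after 12 h without amino acids, 3594 to 3714 CPM after 12 h without glucose and 5576 to 6147 CPM in control cells. At 6 h it was 1842 to 1848 CPM without amino acids and 4953 to 4955 CPM without glucose, and at 3 h 4248 to 4284 CPM and 5528 to 5598 CPM. In such bulk RNA, fewer cells of a type and less RNA per cell cannot be told apart. Each of the 6 epithelial markers was under 1 CPM in every group, and their sum was 0.189 to 0.253 CPM after 3 h without amino acids, 0.602 to 0.953 CPM after 3 h without glucose and 0.197 to 0.24 CPM in control cells. The macrophage markers summed to 21.7 to 24 CPM, 20.4 to 21.1 CPM and 14.4 to 14.9 CPM in the same groups, mostly from Csf1r, with Ptprc at 0 reads in these groups except for 2 reads in 1 library without glucose and Adgre1 at 0 in all. The endothelial sum, nearly all from Kdr, was 19.8 to 23.5 CPM, 21.8 to 22.9 CPM and 4.21 to 5.08 CPM, and Pecam1, Cdh5 and Tek stayed under 1 CPM. Whether these cell type markers had a part in the results below was not tested.

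**Figure D1:**
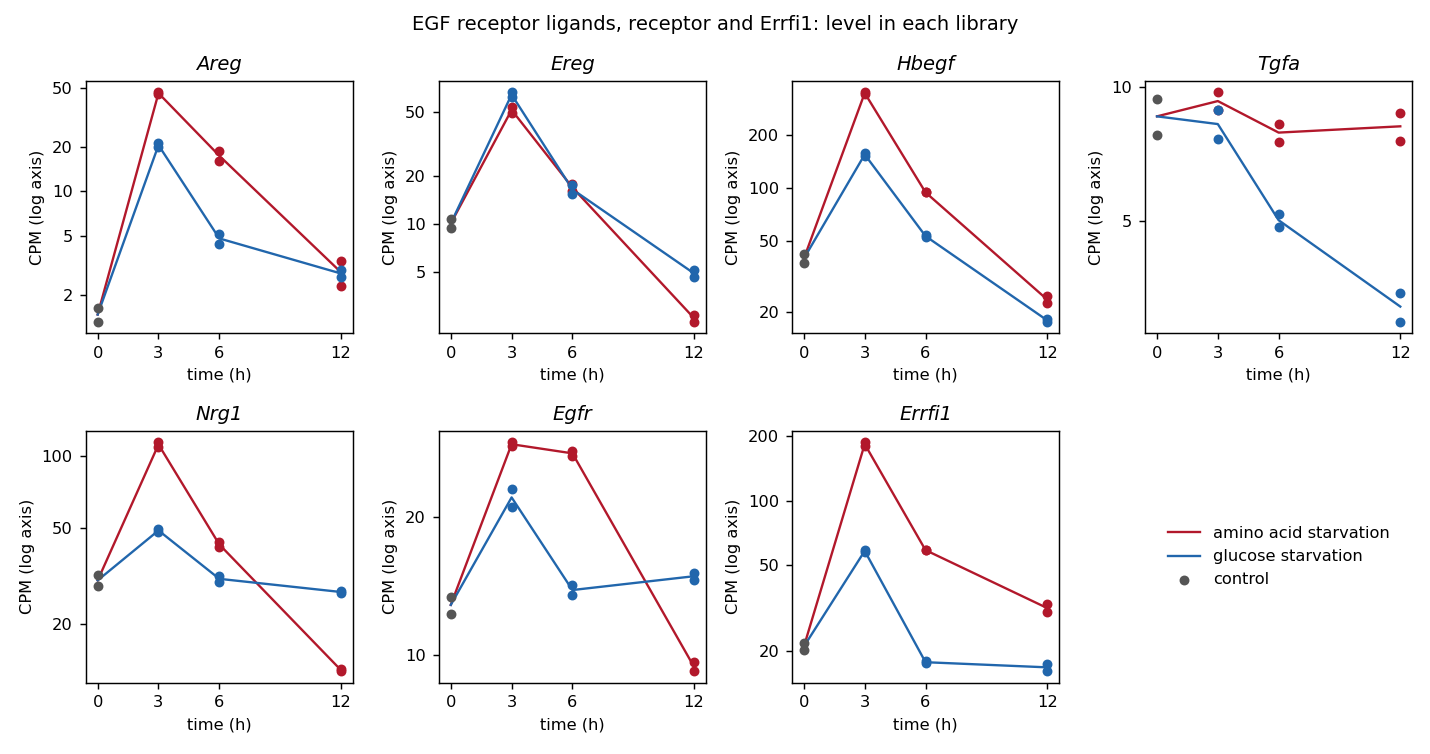
Level of each gene in CPM (log axis) against time in hours. Points are libraries, lines join group means, red is amino acid starvation, blue is glucose starvation and grey the control at 0 h, which both lines share. Levels of 6 genes are above the control at 3 h, the first starved time sampled, in both starvations, and those of Tgfa overlap it. Without amino acids, Egfr is about as high at 6 h as at 3 h.

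At 3 h without amino acids, 6 of the 7 genes were above the control and 0 below, where 60.0% of all tested genes were called, 27.9% higher and 32.1% lower. At 3 h without glucose the same 6 were above it, where 43.3% of all genes were called, 20.3% higher and 23.1% lower. The median log2 fold change of the 7 genes was 2.36 at 3 h without amino acids (all genes -0.066) and 1.48 at 3 h without glucose (all genes -0.039). The rise was short. From 3 to 6 h, 5 of 7 fell without amino acids (of all genes 50.1% called, 24.7% higher and 25.4% lower) and 7 of 7 fell without glucose (33.3% called, 17.8% higher and 15.5% lower). From 6 to 12 h, 6 of 7 fell without amino acids (54.9% called, 27.8% higher and 27.1% lower) and 5 of 7 without glucose (47.5% called, 25.6% higher and 21.9% lower). The last of these counts includes Nrg1 (-0.18, edgeR adjusted p = 0.0408), which missed the threshold without any one of its 4 libraries, with library totals as the scaling (edgeR adjusted p = 0.0841) and with its rows summed (edgeR adjusted p = 0.168).

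Areg had the largest change of the 7. Its product is a low-affinity ligand of the EGF receptor. Areg stood at 1.33 and 1.64 CPM in the control libraries at 0 h, and at 45.4 and 46.4 CPM after 3 h, 16.0 and 18.8 CPM after 6 h, and 2.32 and 3.40 CPM after 12 h without amino acids. Without glucose it stood at 19.8 and 21.2 CPM after 3 h, 4.46 and 5.20 CPM after 6 h, and 2.64 and 2.97 CPM after 12 h. Every starved library was above both control libraries. The log2 fold change against the control was 4.95 (SE 0.15, edgeR adjusted p = 1.81e-21) at 3 h without amino acids and 3.78 (SE 0.16, edgeR adjusted p = 6.37e-18) at 3 h without glucose. At 12 h Areg was still higher than in control cells, by 0.95 (SE 0.19, edgeR adjusted p = 5.03e-05) without amino acids and by 0.91 (SE 0.19, edgeR adjusted p = 0.000156) without glucose.

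Ereg, a ligand of the EGF receptor and of ErbB4, lies next to Areg on mouse chromosome 5, where the order of the ligand genes is Epgn, Ereg, Areg and Btc. Ereg stood at 9.48 and 10.7 CPM in the control at 0 h, and at 53.9 and 49.8 CPM after 3 h, 17.8 and 16.1 CPM after 6 h and 2.70 and 2.45 CPM after 12 h without amino acids. With glucose withdrawn it stood at 66.7 and 62.6 CPM after 3 h, 17.5 and 15.5 CPM after 6 h and 4.64 and 5.18 CPM after 12 h. Libraries after 3 and 6 h lay above the control and those after 12 h below it in both starvations. The log2 fold change was 2.36 (SE 0.095, edgeR adjusted p = 9.95e-19) at 3 h and -1.97 (SE 0.12, edgeR adjusted p = 1.04e-14) at 12 h without amino acids. It was 2.68 (SE 0.095, edgeR adjusted p = 1.58e-19) at 3 h and -1.04 (SE 0.11, edgeR adjusted p = 2.99e-09) at 12 h without glucose. Gm19610, annotated on the opposite strand of Ereg and sharing 141 exon bases with it, had 7.75 and 6.91 CPM at 3 h without amino acids, 5.36 and 4.71 CPM at 3 h without glucose and 1.72 and 1.64 CPM in control cells. Whether counting used strand is not stated, so reads of the 2 genes cannot be told apart in the shared bases.

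The mix of the chromosome 5 neighbours differed by starvation, as shown by the reads of Areg per read of Ereg, a ratio that needs no scaling. It was 0.843 and 0.933 at 3 h, 0.898 and 1.17 at 6 h, and 0.857 and 1.38 at 12 h without amino acids. Without glucose it was 0.296 and 0.339, 0.255 and 0.335, and 0.568 and 0.574 at the same times, and the control libraries had 0.140 and 0.154. All starved libraries were above the control, and those without amino acids were above those without glucose at each time. The ratio itself was not tested.

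Per length of the rows used, Hbegf was the most abundant transcript of the 5 ligand genes in all 7 groups. This rank depended on the Nrg1 row, which has 5846 bases. A shorter Nrg1 row of 1812 bases had 1106 and 698 reads at 12 h without glucose. The Hbegf row of 2375 bases had 981 and 664 reads there, so that Nrg1 would rank first with its shorter row. The Hbegf product binds the EGF receptor and ErbB4 and, through its heparin-binding stretch, the cell surface. Hbegf stood at 37.8 and 42.2 CPM in the control at 0 h, and at 346 and 341 CPM after 3 h, 94.6 and 94.3 CPM after 6 h and 22.4 and 24.5 CPM after 12 h without amino acids. Without glucose it stood at 152 and 157 CPM after 3 h, 52.7 and 54.3 CPM after 6 h and 18.2 and 17.6 CPM after 12 h. No starved group overlapped the control, and the 12 h libraries were below it. The log2 fold change was 3.10 (SE 0.063, edgeR adjusted p = 1.07e-25) at 3 h and -0.77 (SE 0.065, edgeR adjusted p = 1.49e-11) at 12 h without amino acids. Without glucose it was 1.95 (SE 0.062, edgeR adjusted p = 1.15e-20) at 3 h and -1.16 (SE 0.067, edgeR adjusted p = 7.05e-15) at 12 h.

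Tgfa, a high-affinity ligand of the receptor, lacked the early rise. It stood at 7.78 and 9.37 CPM in the control at 0 h, and at 8.86 and 9.70 CPM after 3 h, 8.24 and 7.53 CPM after 6 h and 8.74 and 7.55 CPM after 12 h without amino acids. In glucose starvation it stood at 8.85 and 7.63 CPM after 3 h, 5.18 and 4.85 CPM after 6 h and 3.45 and 2.97 CPM after 12 h. Libraries overlapped the control at all times without amino acids and at 3 h without glucose, and lay below it at 6 and 12 h without glucose. Log2 fold changes without amino acids were 0.11 (SE 0.14), -0.12 (SE 0.14) and -0.08 (SE 0.14) at 3, 6 and 12 h, with edgeR adjusted p of 0.494, 0.44 and 0.643. At 12 h without glucose Tgfa fell by 1.41 on the log2 scale (SE 0.15, edgeR adjusted p = 3.17e-09).

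Nrg1 rose at 3 h in both starvations, and more without amino acids. It stood at 28.8 and 31.9 CPM in the control at 0 h, and at 109 and 114 CPM after 3 h, 43.9 and 41.7 CPM after 6 h and 13 and 12.7 CPM after 12 h without amino acids. Under glucose loss it stood at 49.5 and 48.4 CPM after 3 h, 31.6 and 30.0 CPM after 6 h and 27.4 and 26.9 CPM after 12 h. At 6 h without glucose the libraries overlapped the control, and every other starved group was apart from it. The log2 fold change was 1.88 (SE 0.070, edgeR adjusted p = 1.97e-19) at 3 h and -1.24 (SE 0.076, edgeR adjusted p = 1.16e-14) at 12 h without amino acids. Without glucose it was 0.69 (SE 0.071, edgeR adjusted p = 3.82e-09) at 3 h and -0.16 (SE 0.072, edgeR adjusted p = 0.0603) at 12 h. The 12 h value without glucose passed the threshold without the first control library (-0.23, edgeR adjusted p = 0.0201), with RLE scaling (-0.17, edgeR adjusted p = 0.0444) and with library totals (-0.26, edgeR adjusted p = 0.00288).

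Many transcript rows name Nrg1. Beside the row used, 20 other rows held reads, at 9.67% to 86.4% of its reads in a library, and the rows may share reads. The 12 h value without glucose depended on the row, since it was 0.03 with the row of the second most reads and 0.03 with all rows summed. Gm26578 lies on the opposite strand of Nrg1 and shares 482 exon bases with it.

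Egfr encodes the receptor itself. It stood at 13.4 and 12.3 CPM in the control at 0 h, and at 28.6 and 29.2 CPM after 3 h, 28 and 27.2 CPM after 6 h and 9.19 and 9.61 CPM after 12 h without amino acids. Without glucose it stood at 23.1 and 21.1 CPM after 3 h, 14.2 and 13.5 CPM after 6 h and 15.1 and 14.6 CPM after 12 h. All libraries after 3 and 6 h were above the control, and those after 12 h without amino acids below it. From 3 to 6 h without amino acids the log2 fold change was -0.07 (SE 0.086, edgeR adjusted p = 0.538), and 0.03 with library totals as the scaling. Against the control it was higher by 1.17 (SE 0.090, edgeR adjusted p = 3.37e-12) at 3 h and 1.10 (SE 0.090, edgeR adjusted p = 7.54e-12) at 6 h, and lower at 12 h by a log2 fold change of -0.45 (SE 0.095, edgeR adjusted p = 0.000137). Without glucose it was higher by 0.78 (SE 0.092, edgeR adjusted p = 4.29e-08) at 3 h. Values at 6 and 12 h without glucose were 0.11 (edgeR adjusted p = 0.364) and 0.21 (edgeR adjusted p = 0.0506), although neither group overlapped the control. Without the first control library, the 12 h value was 0.27 (edgeR adjusted p = 0.0451).

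Egfr has 2 transcript rows, a long one of 10208 bases, used above, and a short one of 2943 bases. Reads of the short row made up 34.8% and 29.3% of those of the long row at 3 h, 32.0% and 33.7% at 6 h and 40.0% and 38.3% at 12 h without amino acids. Without glucose they made up 35.2% and 34% at 3 h, 39.3% and 25.0% at 6 h and 41.0% and 41.0% at 12 h, against 30.7% and 30.4% in control cells. Both 12 h groups, the 6 h group without amino acids and the 3 h group without glucose lay above the control, and the 3 h libraries without amino acids and the 6 h libraries without glucose straddled it. With the short row in place of the long one, the fall at 12 h without amino acids was lost (log2 fold change -0.09, edgeR adjusted p = 0.664), and Egfr rose at 12 h without glucose (0.64, edgeR adjusted p = 0.00209). From 6 to 12 h without glucose it then rose as well (0.46, edgeR adjusted p = 0.0296).

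**Figure D2:**
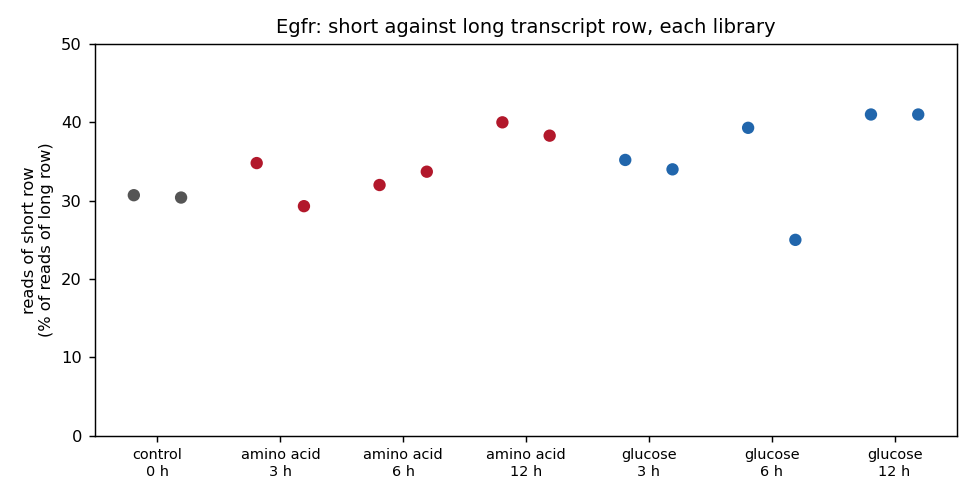
Reads of the short Egfr transcript row as a percentage of those of the long row (y axis), 1 point per library, by group (x axis). Grey is the control, red amino acid starvation and blue glucose starvation, and the 12 h libraries lie at 38.3% to 41.0%, above the control libraries at 30.4% and 30.7%.

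Errfi1, the feedback inhibitor, had a log2 fold change near that of Hbegf at 3 h without amino acids. It stood at 20.2 and 21.6 CPM in the control at 0 h, and at 180.2 and 188 CPM after 3 h, 59.1 and 58.7 CPM after 6 h and 33.0 and 30.2 CPM after 12 h without amino acids. After glucose withdrawal it stood at 59.2 and 57.6 CPM after 3 h, 17.5 and 17.8 CPM after 6 h and 16.0 and 17.4 CPM after 12 h. All libraries without amino acids were above the control, and those after 6 and 12 h without glucose were below it. The log2 fold change without amino acids was 3.14 (SE 0.071, edgeR adjusted p = 1.03e-24) at 3 h and 0.60 (SE 0.070, edgeR adjusted p = 1.42e-08) at 12 h. Without glucose it was 1.48 (SE 0.070, edgeR adjusted p = 1.41e-16) at 3 h and -0.33 (SE 0.074, edgeR adjusted p = 0.000382) at 12 h. The value at 6 h without glucose, -0.25 (SE 0.075, edgeR adjusted p = 0.00784), missed the threshold without the second control library (-0.20, edgeR adjusted p = 0.0764) and without the first library of that starved group (-0.23, edgeR adjusted p = 0.0528).

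**Figure D3:**
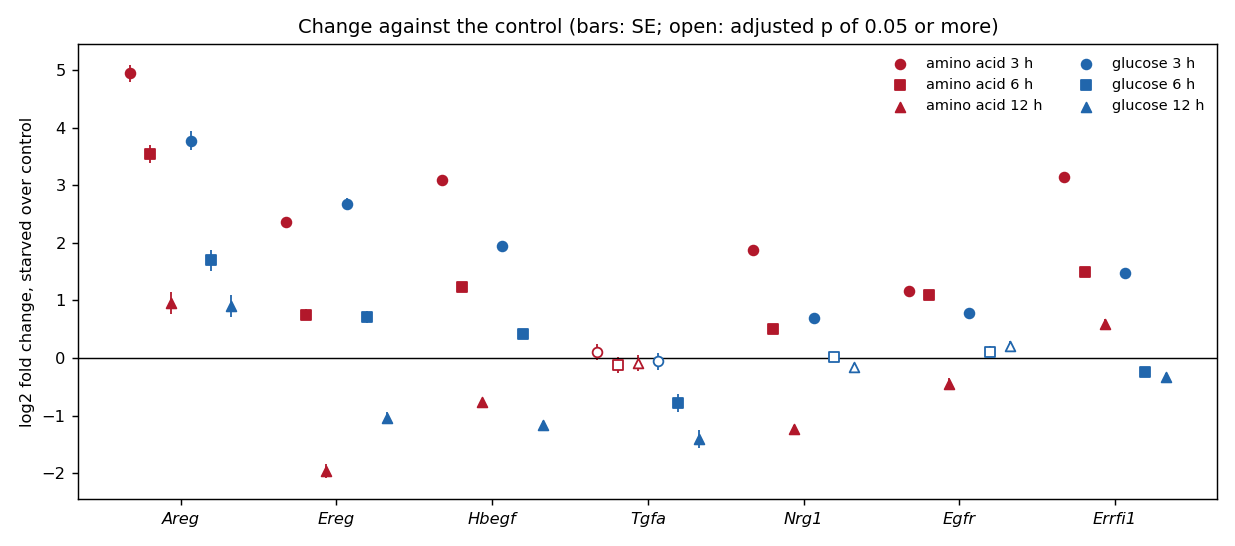
Log2 fold change of each gene, starved over control, with bars for the SE, by starvation (colour) and time (symbol). Filled symbols have an edgeR adjusted p under 0.05, and Areg alone of the 7 genes is above the control in all 6 starved groups.

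At the later times the genes parted. After 6 h without amino acids, 6 of 7 were above the control and 0 below (of all genes 65.6% called, 32.3% higher and 33.3% lower). After 6 h without glucose 3 were above and 2 below (47.5% called, 23.3% higher and 24.2% lower). After 12 h, Areg and Errfi1 were above the control without amino acids and Ereg, Hbegf, Nrg1 and Egfr below it (of all genes 66.9% called, 34.9% higher and 32.0% lower). Without glucose, Areg alone was called above the control at 12 h. Ereg, Hbegf, Tgfa and Errfi1 were then below it (of all genes 58.4% called, 30.4% higher and 28.0% lower). The Egfr libraries of that group also lay above the control, just short of the threshold (0.21, edgeR adjusted p = 0.0506). Egfr was called higher there with a stricter filter (0.22, edgeR adjusted p = 0.0348) and with its rows summed (0.30, edgeR adjusted p = 0.0126). The median of the 7 genes at 12 h was -0.45 without amino acids (all genes 0.057) and -0.33 without glucose (all genes 0.008). These comparisons share the control libraries.

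Amino acid and glucose starvation were then compared directly, which sets cells of the same medium change and time against each other. At 3 h, Areg, Hbegf, Nrg1, Egfr and Errfi1 were higher without amino acids, and Ereg was lower (of all genes 54.4% called, 26.7% higher and 27.7% lower). The largest of these differences was that of Errfi1, with 180.2 and 188 CPM without amino acids and 59.2 and 57.6 CPM without glucose (log2 fold change 1.66, SE 0.066, edgeR adjusted p = 2.94e-18). Egfr differed by 0.39 (SE 0.088, edgeR adjusted p = 0.000472), and by 0.28 (edgeR adjusted p = 0.153) with its short row. Hbegf differed by 1.15 (SE 0.058, edgeR adjusted p = 7.09e-16) and Nrg1 by 1.19 (SE 0.069, edgeR adjusted p = 1.44e-14). Ereg differed by -0.32 (SE 0.085, edgeR adjusted p = 0.00222), which missed the threshold without the second library of 3 h amino acid starvation (-0.26, edgeR adjusted p = 0.0538).

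At 6 h, 6 of 7 genes were higher without amino acids and 0 lower (of all genes 63.8% called, 31.5% higher and 32.3% lower). Areg, at 16.0 and 18.8 CPM without amino acids and 4.46 and 5.20 CPM without glucose, differed by 1.85 (SE 0.13, edgeR adjusted p = 7.76e-13). Errfi1 differed by 1.74 (SE 0.072, edgeR adjusted p = 2.39e-18) and Egfr by 0.99 (SE 0.091, edgeR adjusted p = 9.39e-11). The Ereg value was 0.04 (SE 0.095, edgeR adjusted p = 0.736). At 12 h, Hbegf, Tgfa and Errfi1 were higher without amino acids and Ereg, Nrg1 and Egfr lower (64.1% called, 32.5% higher and 31.6% lower). Tgfa then had 8.74 and 7.55 CPM without amino acids and 3.45 and 2.97 CPM without glucose (1.33, SE 0.15, edgeR adjusted p = 6.26e-09). Nrg1 had 13 and 12.7 CPM without amino acids and 27.4 and 26.9 CPM without glucose (-1.08, SE 0.077, edgeR adjusted p = 3.66e-13).

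The change from 3 to 12 h was also compared between the starvations, as that without amino acids minus that without glucose. Of the 7 genes, Tgfa had a positive difference and the other 6 a negative one (of all genes 47.4% called, 21.7% higher and 25.7% lower), with a median of -0.77 (all genes -0.017).

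Levels of different genes were compared per length, as CPM per kb of the transcript row used. For Nrg1 the order depended on the row. The row used has 5846 bases, and another of 1812 bases held 54.3% to 75.0% of its reads. With that shorter row Nrg1 would rank above Errfi1 in control cells and above Areg at 3 h without amino acids. In control cells the order was Hbegf at 16.8 ± 1.3, Errfi1 at 6.87 ± 0.33, Nrg1 at 5.19 ± 0.38, Ereg at 2.44 ± 0.20, Tgfa at 1.89 ± 0.25, Egfr at 1.26 ± 0.073 and Areg at 1.22 ± 0.18 CPM per kb (SD, n = 2), and the last pair overlapped. With the rows used, Areg came second among the ligands at 3 h without amino acids, at 37.8 ± 0.59 CPM per kb against 1.22 ± 0.18 in control cells. The 4 ligands of the EGF receptor summed to 198 and 196 CPM per kb at 3 h, 59.1 and 60.7 at 6 h and 13.9 and 15.4 at 12 h without amino acids. Without glucose they summed to 98.5 and 100.5 at 3 h, 31.2 and 32.0 at 6 h and 11.7 and 11.8 at 12 h, against 21.0 and 23.8 CPM per kb in control cells. Both 12 h groups lay below the control, and this sum was not tested.

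Hbegf made up most of that sum in every library, 63.0% to 75.7% of it. The share of Areg was 18.9% and 19.5% at 3 h without amino acids, 16.5% and 17.4% at 3 h without glucose, and 5.21% and 5.69% in control cells. It was still 13.7% and 18.2% at 12 h without amino acids and 18.5% and 20.8% at 12 h without glucose. The share of Tgfa was 0.988% and 1.09% at 3 h without amino acids, 13.9% and 10.9% at 12 h without amino acids, and 8.18% and 8.71% in control cells.

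**Figure D4:**
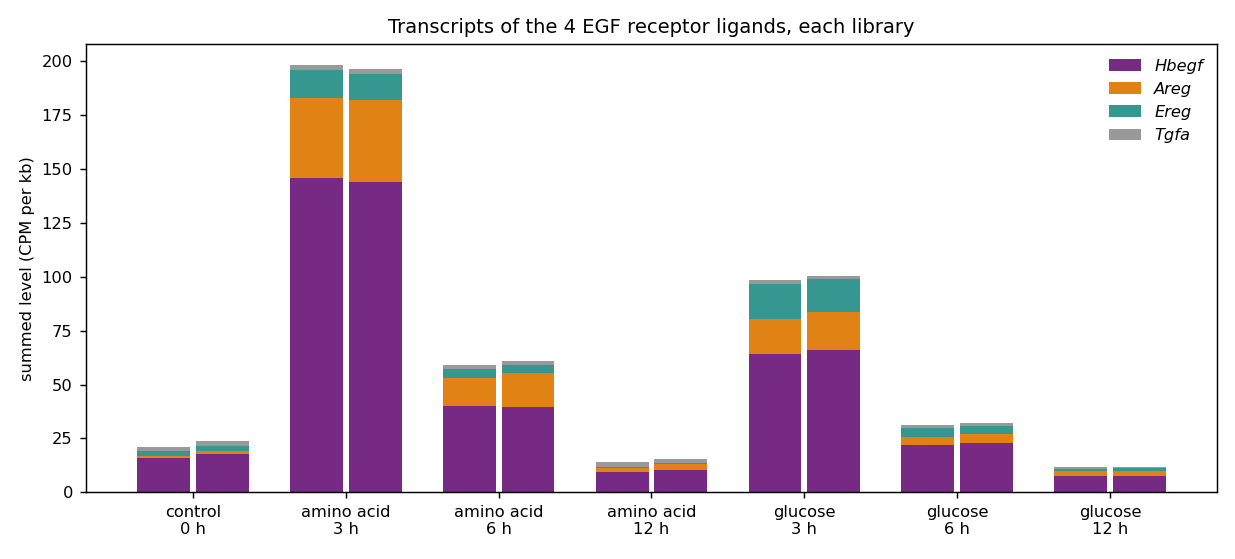
Summed level of Hbegf, Areg, Ereg and Tgfa in CPM per kb of transcript (y axis, from 0), 1 bar per library, 2 libraries per group (x axis). The sum reaches 196 and 198 CPM per kb at 3 h without amino acids and lies under the control at 12 h in both starvations.

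Of the other ErbB ligands and receptors, Nrg3 and Erbb4 did not pass the filter on low counts, and Egf, Btc, Epgn and Nrg2 had group means of at most 2.55 CPM. Btc, the betacellulin gene next to Areg, had 1.91 ± 0.40 CPM at 3 h without glucose against 0.437 ± 0.060 CPM in control cells (SD, n = 2), and its log2 fold change was 2.12. Nrg2 had 0.515 ± 0.048 CPM against 1.66 ± 0.12 CPM in the same comparison, a log2 fold change of -1.68, and Egf had 0.364 ± 0.086 against 1.03 ± 0.0031 CPM at 3 h without amino acids, a log2 fold change of -1.48. Epgn had 0.333 ± 0.26 CPM at 6 h without glucose against 0.0219 ± 0.031 CPM in control cells. Nrg4, another neuregulin gene, had group means of 5.57 to 8.23 CPM and passed no test against the control. Per length it had 3.48 CPM per kb in control cells, above Ereg, Tgfa and Areg.

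Both other tested receptors were lower at 3 h. Erbb2, which has no ligand of its own and pairs with the other receptors, was below the control in all 6 starved groups, with 51.5 ± 0.32 CPM at 12 h without glucose against 101 ± 7.2 CPM in control cells (SD, n = 2, log2 fold change -0.97). Erbb3, a neuregulin receptor whose kinase is nearly inactive, had 1.92 ± 0.18 CPM at 3 h without glucose against 8.38 ± 0.083 CPM in control cells, a log2 fold change of -2.13. Without amino acids Erbb3 had 2.88 ± 0.36 CPM at 3 h and 8.38 ± 1.1 CPM at 12 h.

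Of 9 genes that govern ligand release, 5 rose and 3 fell at 3 h without amino acids (median 0.30), and 3 rose and 1 fell at 3 h without glucose (median 0.13). Of all genes, 27.9% were higher and 32.1% lower at 3 h without amino acids (median -0.066), and 20.3% and 23.1% at 3 h without glucose (median -0.039). At 12 h 1 rose and 6 fell without amino acids (median -0.62), and 2 rose and 5 fell without glucose (median -0.14), where 34.9% of all genes were higher and 32.0% lower without amino acids (median 0.057), and 30.4% and 28.0% without glucose (median 0.008). Adam17, the main protease of these ligands, had 61.6 ± 0.32 CPM at 3 h without amino acids against 70.1 ± 4.2 CPM in control cells (SD, n = 2, log2 fold change -0.19). Timp3, a secreted inhibitor of ADAM17, rose at 3 h in both starvations (1.81 and 2.13). Without amino acids it had 2462 ± 65 CPM at 3 h and 136 ± 3.9 CPM at 12 h, against 699.9 ± 38 CPM in control cells. Its log2 fold change at 12 h without amino acids was -2.36. Without glucose it still had 1944 ± 37 CPM at 6 h, and at 12 h it had 635 ± 15 CPM, near the control. The metalloprotease gene Adam12 reached 44.3 ± 3.0 CPM at 6 h without glucose against 11.9 ± 0.27 CPM in control cells (1.89), Adam15 had -1.33 at 12 h without amino acids and Adam8 had -1.25 at 12 h without glucose. Rhbdf2 encodes an iRhom needed by ADAM17. It had 54.3 ± 0.49 CPM at 3 h without amino acids, 23.7 ± 1.1 CPM at 3 h without glucose and 23.1 ± 1.5 CPM in control cells.

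Of 16 genes of the cascade from the receptor to ERK, 9 rose and 4 fell at 3 h without amino acids (median 0.15), and 3 rose and 5 fell at 3 h without glucose (median -0.06). Beside the 20.3% of all genes that were higher and the 23.1% that were lower at 3 h without glucose, these counts are no result about the cascade, and without amino acids 27.9% of all genes were higher and 32.1% lower. Mapk3, which encodes ERK1, had a log2 fold change of -1.93 at 12 h without amino acids. The docking protein gene Gab1 had -1.53 at 6 h without glucose, the exchange factor gene Sos2 had 1.23 at 3 h without amino acids, and Hras had -1.21 at 6 h without amino acids. Of 18 genes that restrain or sort the receptor, 17 were tested, of which 13 rose and 2 fell at 3 h without amino acids (median 0.48) and 6 rose and 2 fell at 3 h without glucose (median 0.15), beside the same shares of all genes. Socs4, a suppressor gene that was higher at each time without amino acids, had 1.53 at 6 h. Sh3kbp1, an adaptor of receptor uptake, had -2.29 and Eps8 had -2.09 at 12 h without amino acids, and Socs5 had -1.85 at 12 h without glucose. Lrig1, whose product promotes loss of ErbB receptors, had 169 ± 2.5 CPM and 159 ± 1.2 CPM at 3 h without amino acids and without glucose, against 75.6 ± 3.9 CPM in control cells (SD, n = 2). In the same order it had 84.1 ± 0.38 and 74.1 ± 0.12 CPM at 6 h. At 12 h Lrig1 was below the control, with 31.7 ± 0.65 and 30 ± 1.9 CPM.

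A published list of 10 genes used as a readout of ERK activity was mostly higher at 3 h and mostly lower at 12 h. It was chosen with earlier results of these data known. At 3 h, 8 of 10 rose and 2 fell without amino acids (median 1.61) and 8 rose and 1 fell without glucose (median 1.20), where 27.9% of all genes were higher and 32.1% lower without amino acids (median -0.066), and 20.3% and 23.1% without glucose (median -0.039). At 12 h, 0 rose and 9 fell without amino acids (median -0.77), and 2 rose and 7 fell without glucose (median -0.50), beside 34.9% of all genes higher and 32.0% lower without amino acids (median 0.057), and 30.4% and 28.0% without glucose (median 0.008). The ERK phosphatase gene Dusp4 had 65.9 ± 0.19 CPM at 3 h without glucose against 6.84 ± 0.39 CPM in control cells (SD, n = 2, log2 fold change 3.27), and Spry4, which encodes a RAS pathway inhibitor, had a log2 fold change of 2.46 at 3 h without amino acids. Phlda1 had 164 ± 7.3 CPM at 3 h and 5.81 ± 0.25 CPM at 12 h without amino acids against 47.3 ± 0.27 CPM in control cells, a log2 fold change of -3.02 at 12 h. Ccnd1, the cyclin D1 gene, went the other way already at 3 h without amino acids (-1.38) and had a log2 fold change of -4.57 at 12 h. Between the starvations at 3 h, 3 of the 10 were higher and 4 lower without amino acids (median -0.08). Of all genes, 26.7% were higher and 27.7% lower in this comparison (median -0.026), so that these counts are no result about the list. Of the 7 genes above, 5 were higher and 1 lower (median 1.15).

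**Figure D5:**
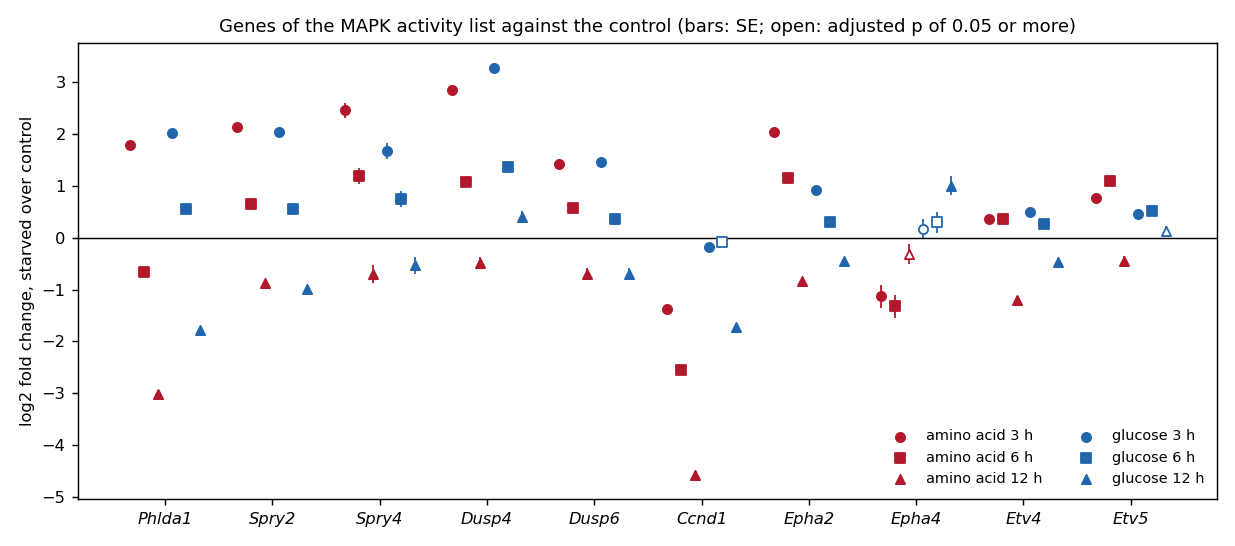
Log2 fold change, starved over control, of the 10 genes of the ERK activity list, with bars for the SE, by starvation (colour) and time (symbol). Most symbols of 3 h lie above 0 and most of 12 h below it, and Ccnd1 is at -4.57 at 12 h without amino acids.

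The 7 group means of log2 CPM served to find the genes most like each of the 7. They were ranked by Pearson's r among 5073 or 5074 genes that were expressed (mean log2 CPM not under 3) and varied (range not under 1). Zeb2 (0.987), Gfod1 (0.986) and Wnt11 (0.984) were most like Areg. Plpp3 (0.999), Klf10 (0.995) and Myo10 (0.995) were most like Ereg, and Nab2 (0.997), a corepressor of EGR factors, Tcf4 (0.996) and Sh3bp2 (0.992) most like Hbegf. Nrg1 was nearest to Arhgap42 (0.982), Lrfn4 (0.977) and the sphingosine kinase gene Sphk1 (0.977), and Tgfa to Atrnl1 (0.991), Adgrl1 (0.975) and Zbtb22 (0.974). Egfr had the lowest values, with Dhrs9, Stambpl1 and Tacc2 at 0.959 each, and Errfi1 was nearest to Sox4 (0.994), Usp6nl (0.988) and Stx11 (0.987). Among the 7 genes themselves, r over the same 7 group means was highest for Ereg and Hbegf (0.92) and for Areg and Hbegf (0.91), and 0.81 for the neighbours Areg and Ereg. Tgfa had 0.28 to 0.65 with the others. These points share libraries and 1 control, so that r only describes likeness.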

How the data were processed

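Total RNA of cultured mouse embryonic fibroblasts was sequenced in 14 libraries, grouped by the sample titles. The deposited table holds whole-number read counts per transcript row, not normalised as far as the values show. Per the submitters' processing notes, STAR, bedtools and the build GRCm39 were used, and versions, annotation and counting rules are not given in the sources used here. Of 67457 rows, 58 named no gene, with 0% of reads. The other rows covered 40800 genes, of which 13432 had several rows, and the row with the most reads stood for each gene.

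Counts were fitted in R 4.3.3 with edgeR 4.0.16 (filterByExpr, TMM, robust glmQLFit of 7 group means over all 14 libraries, 7 residual degrees of freedom), with two-sided tests in 14 comparisons and Benjamini-Hochberg adjustment over 17696 genes each. The biological coefficient of variation was 5.78%. On counts simulated from the 3 h libraries without amino acids and the control (16259 genes), 4 of 170 calls were false. On the log2 scale, the test recovered 59.7% of changes of 0.5 (67 genes), 91% of changes of 1 (67 genes) and 98.5% of changes of 2 (66 genes). Unlike the data, this simulation held only these groups, gave all genes the same spread and changed few genes. In the data, 60.0% of genes were called in this comparison. The simulation therefore does not give the error rate of the fit over all 14 libraries. Alternatives were other scalings (RLE, library totals), DESeq2 1.42.0, a stricter or no filter, a fit of the compared groups alone, a replicate block, sums of rows, and leaving out each library. The row of the second most reads was added after seeing the data. The 7 genes and all lists were chosen with earlier results of these data known. Named were the 7 genes, every family ligand and receptor that was tested, up to 4 called genes per list with the largest change, and 3 genes most like each of the 7. Values of Adam17, Rhbdf2, Lrig1 and Gm19610 were added after seeing them.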

Additional observations from a re-analysis of the deposited data

Results flagged for a closer look

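All 7 genes were called in the test of whether the change from 3 to 12 h differed between the starvations. The difference was taken as the change without amino acids minus that without glucose on the log2 scale. In that test 47.4% of all genes were called, 21.7% higher and 25.7% lower, so that a call alone does not set a gene apart. The difference was -2.27 for Nrg1 (SE 0.10, edgeR adjusted p = 9.15e-17), which fell to 12.8 ± 0.19 CPM at 12 h without amino acids, against 112 ± 3.6 CPM at 3 h, and to 27.1 ± 0.37 CPM at 12 h without glucose, against 49.0 ± 0.76 CPM at 3 h (SD, n = 2). Differences of the same sign were found for Areg (-1.12, edgeR adjusted p = 3.47e-05), Egfr (-1.05, edgeR adjusted p = 8.08e-08), Hbegf (-0.77, edgeR adjusted p = 3.5e-08), Errfi1 (-0.73, edgeR adjusted p = 2.66e-07) and Ereg (-0.60, edgeR adjusted p = 0.00199). Tgfa alone of the 7 had a positive difference, 1.16 (SE 0.21, edgeR adjusted p = 2.63e-05). With library totals as the scaling the Ereg difference was -0.36 (edgeR adjusted p = 0.0646), and the median of all genes moved by 0.247 in this comparison.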

How the results depend on the processing

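All 344 counts of called genes and of called members under the alternatives were within 1.5 times those reported, and of 1246 log2 fold changes of the 7 genes, 1202 kept direction and side of the threshold, 13 lost a call, 9 gained one and 22 changed sign, none of them called either way. With library totals, signs changed for Tgfa at 3 h (-0.06) and 12 h (0.06) without amino acids, Nrg1 (-0.11) and Egfr (-0.02) at 6 h without glucose, and Egfr from 3 to 6 h without amino acids (0.03). Nrg1 at 12 h without glucose was 0.03 with summed rows and 0.03 with the second row. Tgfa from 6 to 12 h without amino acids was -0.0033 with RLE and -0.0036 with DESeq2. Leaving out single libraries gave for Tgfa -0.01 to 0.25, -0.25 to 0.02 and -0.23 to 0.06 at 3, 6 and 12 h without amino acids, -0.19 to 0.08 at 3 h without glucose and -0.08 to 0.13 from 6 to 12 h without amino acids. It gave -0.05 to 0.10 for Nrg1 at 6 h without glucose, and between the starvations -0.05 to 0.13 for Ereg at 6 h and -0.29 to 0.26 for Areg at 12 h. The fall of Nrg1 from 6 to 12 h without glucose (-0.18, adjusted p = 0.0408) was lost without any of its 4 libraries (edgeR adjusted p of 0.0623 to 0.226). The causes were not tested. Same-numbered libraries did not deviate together (r of -0.0337 to 0.0355 over 21 pairs of groups), and the replicate block moved only Egfr at 12 h without glucose past the threshold (0.21, adjusted p = 0.0483). With library totals 34.2% in place of 46.5% of calls at 3 h without amino acids were higher, 25.7% in place of 46.8% at 3 h and 33.1% in place of 49% at 6 h without glucose, 65.5% in place of 50.8% between the starvations at 12 h, 60.6% in place of 49.3% from 3 to 6 h and 69.3% in place of 50.6% from 6 to 12 h without amino acids, and 66% in place of 45.8% in the difference of the 3 to 12 h changes. Medians of all genes moved by -0.176 to 0.247.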
